A study of Mus musculus with 103 samples.

Results

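The voltage-gated and related ion channels of neurons were followed through RNA, ribosome footprints and translational efficiency in adult mouse cortex with and without neuronal Nsun2. Members were chosen by gene symbol, with earlier results of these data known. The rule itself uses no measured value. It takes every transcript whose symbol begins with Kcn, with Scn and a digit, with Cacna1, Cacna2d or Cacnb and a digit, or with Hcn and a digit. The rule found 100 of the 12719 transcripts in the ribosome profiling table, 1 transcript for each gene. The study deleted Nsun2, which encodes an RNA methyltransferase that places 5-methylcytosine on tRNAs, from excitatory neurons of the forebrain. Nsun2 KO mice (Nsun2 floxed, Camk2a-Cre pos.) were compared with WT controls (Nsun2 floxed, Camk2a-Cre neg.), so that mice of both groups carried a floxed Nsun2 allele and only the KO mice carried Cre. All were adult, the labels name no treatment, and 2 WT and 2 KO mice were profiled. Each cortex gave a library of ribosome-protected footprints and a library of total RNA. The Camk2a promoter drives Cre in excitatory neurons, so inhibitory neurons, glia and vessels in the same tissue kept Nsun2.

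Ion channels let sodium, potassium or calcium cross the membrane of a neuron. Voltage-gated sodium channels carry the rising phase of the action potential, Kv potassium channels repolarize it and set the firing pattern, and voltage-gated calcium channels couple it to transmitter release and to signalling in dendrites. Leak (K2P) and inward rectifier (Kir) potassium channels hold the resting potential, and HCN channels carry a current that opens on hyperpolarization. Each pore is assembled from pore-forming subunits, named alpha or alpha1 in several families, and many pores bind accessory subunits that change trafficking and gating.

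Potassium-selective pores share a short glycine-containing stretch, the selectivity filter, and HCN channels carry a related one. Its codons are shown because NSUN2 acts on tRNAs, glycine tRNAs among them, and because this stretch places a pair of glycine codons in each of those searched. The coding sequences of the transcripts (GENCODE vM21, mouse build GRCm38) were searched in frame for threonine, serine or cysteine, any residue, glycine, then tyrosine, phenylalanine or leucine, then glycine. The search left out 2 pore-forming members, Kcng2 and Kcnn2. All 63 other pore-forming potassium and HCN members held it, against 6.97% of the 12588 coding sequences of the table. The stretches below belong to the 5 potassium channels whose RNA was called lower in KO mice and, beside them, to Kcna2 and Kcnj10. Each runs 5′ to 3′ with the glycine codons in capitals, and for Kcnk9 the first of its pair of pore loops is given.
Kcnk9: actatcGGAtatGGA
Kcnh5: accataGGAtttGGA
Kcnh3: agtgtgGGCttcGGC
Kcnq5: accattGGCtatGGA
Kcnv1: acagtaGGAtatGGG
Kcna2: actgtaGGCtatGGA
Kcnj10: accatcGGCtatGGC
The same glycines were written with different codons: Kcnk9 and Kcnh5 used GGA for both, Kcnh3 and Kcnj10 used GGC for both, and Kcnq5 used GGC and GGA. Over the 76 stretches, GGA made 19.1% of the 152 glycine codons, GGC 42.8%, GGG 23.0% and GGT 15.1%. Those shares lay close to the use of the 4494 glycine codons of the channels past the filter on low values, of which 19.1% were GGA and 40.4% GGC. Over all transcripts tested, 25.6% of glycine codons were GGA and 33.2% GGC. Hcn4 had 3 matches, and Kcna6, Kcnh2 and the 9 K2P channels, which have a pair of pore loops, had 2 each, so a match is a description of the letters and not of a site.

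Values were the normalized RNA and footprint values deposited for each transcript. The footprint values of a library summed to between 1299137 and 1325836, and the RNA values were whole multiples of a step that, if it is 1 read, puts the RNA libraries at 10465003 to 13174377 reads. Transcripts with a mean of at least 10 footprints over the 4 mice were tested, which left 10674 transcripts and 82 of the 100 channels. Nsun2 itself, on chromosome 13 (chr13:69612016-69634334, GRCm38), had RNA values of 1292 and 1119.9 in WT against 362 and 368 in KO mice and footprint values of 130.0 and 114 in WT against 30.4 and 23.0 in KO mice. The KO mice kept 30.3% of the WT RNA and 21.8% of the WT footprints, with all 4 libraries of each kind on the side their labels give. Differences are KO minus WT on the log2(value + 1) scale with their standard error (SE), from limma with adjustment over all 10674 transcripts, and a transcript is called at an adjusted p under 0.05. With 2 mice a group, n is 2 WT and 2 KO throughout.

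Markers of the cell types of cortex were read in the same libraries. The 10 excitatory neuron markers, Slc17a7 and Camk2a among them, were all present, and their summed RNA was 81261 to 89679.9 in WT mice and 72947 to 73029 in KO mice. Most of that sum came from Nrgn (40284 and 31892 in WT, 27170 and 29669 in KO mice) and Camk2a (30778 and 30503 in WT, 26978 and 26687 in KO mice). The sum therefore says little of the other markers. No excitatory marker was called, and 8 of 10 had a negative RNA difference (median -0.11), Tbr1 and Neurod6 being positive. The 10 inhibitory neuron markers summed to 8277 to 8371 in WT and 10326 to 10481 in KO mice, with 9 of 10 positive (median 0.18) and 1 called, Pvalb, the parvalbumin of fast-spiking interneurons (log2 difference 0.76 ± 0.13, adjusted p = 0.0149). The median over astrocyte markers was -0.081 (10 tested, 7 negative), with Gfap called higher (log2 difference 0.76 ± 0.14, adjusted p = 0.0199). Oligodendrocyte markers had a median of 0.011 (10 tested, 5 negative, 0 called). Microglial markers had a median of -0.34 (9 tested, 9 negative), with Cx3cr1 called lower (adjusted p = 0.042). Vessel markers had a median of 0.14 (4 tested, 1 negative, 0 called). Over all transcripts 44.0% of RNA differences were negative, 1.65% were called lower and 1.50% higher. Gfap was also called higher in footprints (log2 difference 0.75 ± 0.15, adjusted p = 0.0381), a call lost without KO mouse 1 or KO mouse 2 (adjusted p up to 0.228). Without WT mouse 2 none of the 3 RNA calls held (adjusted p up to 0.196), Cx3cr1 was also lost without KO mouse 1, and no marker was at 0 RNA in any mouse. In bulk cortex, fewer cells of a type and less RNA per cell cannot be told apart, and the part of these shifts in the channel differences was not tested.

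In WT cortex, the channels that carried the most footprints for their length were small accessory subunits. Footprints per kilobase of coding sequence, given as mean ± SD of the 2 WT mice, reached 449 ± 21.4 for Kcnab2, a cytoplasmic beta subunit of Kv1 channels, and 319 ± 34.9 for Scn2b, a sodium channel beta subunit. Kcnip4, a calcium-binding partner of Kv4 channels, stood at 225 ± 18.4. The calcium channel beta subunits Cacnb4 and Cacnb3, which bring the pore to the membrane, were at 163 ± 17.7 and 161 ± 26.9, within their spread of each other. Pore-forming subunits lay lower. Among Kv alpha subunits the highest were Kcnv1, which is silent alone and joins Kv2 subunits, at 113 ± 5.67, and Kcna2, an axonal Kv1 subunit, at 102 ± 20.3. Scn8a and Scn2a, the main sodium channels of the axon initial segment, had 53.3 ± 9.23 and 52.7 ± 13.8, which did not differ beyond their spread, and Scn1a, the main sodium channel of inhibitory neurons, had 24.0 ± 3.43. The calcium channel alpha1 subunits had the lowest median of the 11 families, 11.5, and were led by Cacna1e at 31.6 ± 4.51 and Cacna1a at 23.2 ± 1.95. Kcnk1 led the K2P channels with 107 ± 24.4 and Kcnk9 followed with 55.0 ± 17.5, Kcnj4 and Kcnj3 led the Kir channels with 100.4 ± 25.3 and 95.7 ± 23.0, and Hcn2 had 36.2 ± 8.61. Kcnmb4, the neuronal beta subunit of BK channels, and Kcnma1, the BK pore, had 71.6 ± 8.53 and 48.2 ± 10.7, and the alpha2delta subunits Cacna2d1 and Cacna2d2 had 82.2 ± 16.3 and 8.92 ± 0.384.

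Most channel transcripts carried few footprints for their RNA. Translational efficiency was taken in each mouse as log2 footprints minus log2 RNA, and its mean over the WT mice was ranked among the 10674 transcripts. The channels had a median of -3.33 against -2.68 over all transcripts, and 62 of 82 lay under percentile 50, 18 under percentile 10 and 1 over percentile 90. The count under percentile 50 was 63 and 61 with each WT mouse alone, and 60 and 59 with each KO mouse alone. The lowest were Kcnq3, a subunit of the M-current, at percentile 0.281, Kcna2 at 1.81, Cacnb4 at 2.75, Kcnmb4 at 2.85 and Kcnk9 at 3.44. Kcna2 showed what such a rank means in the values: its RNA was 5379 and 5473 in WT against 5743 and 5533 in KO mice, among the highest of the Kv channels, and its footprints were 132 and 175 in WT against 149 and 151 in KO mice. At the other end stood Kcna3 at percentile 93.9, Kcnk12 at 83.1, Kcnab1 at 80.5, Kcnab2 at 71.5 and Kcnh6 at 71.3. Family medians ran from percentile 10.3 for calcium channel beta subunits to 61.6 for Kv accessory subunits, with sodium channel alpha subunits at 16.3 and calcium channel alpha1 subunits at 21.4.

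The ranking depends on what length each library kind is spread over, which the sources used here do not state for RNA. With footprints taken per coding base and RNA per transcript base, an alternative chosen after seeing the data, 58 of 82 channels lay under percentile 50. Kcnq3 was then at percentile 2.96 and Kcna2 at 29.4, while the median of the sodium channel beta subunits moved from 19.9 to 72.7. The calcium channel alpha1 subunits were low in both versions, with all 8 under percentile 50 and a median percentile of 5.72 in the version per base.

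**Figure D1:**
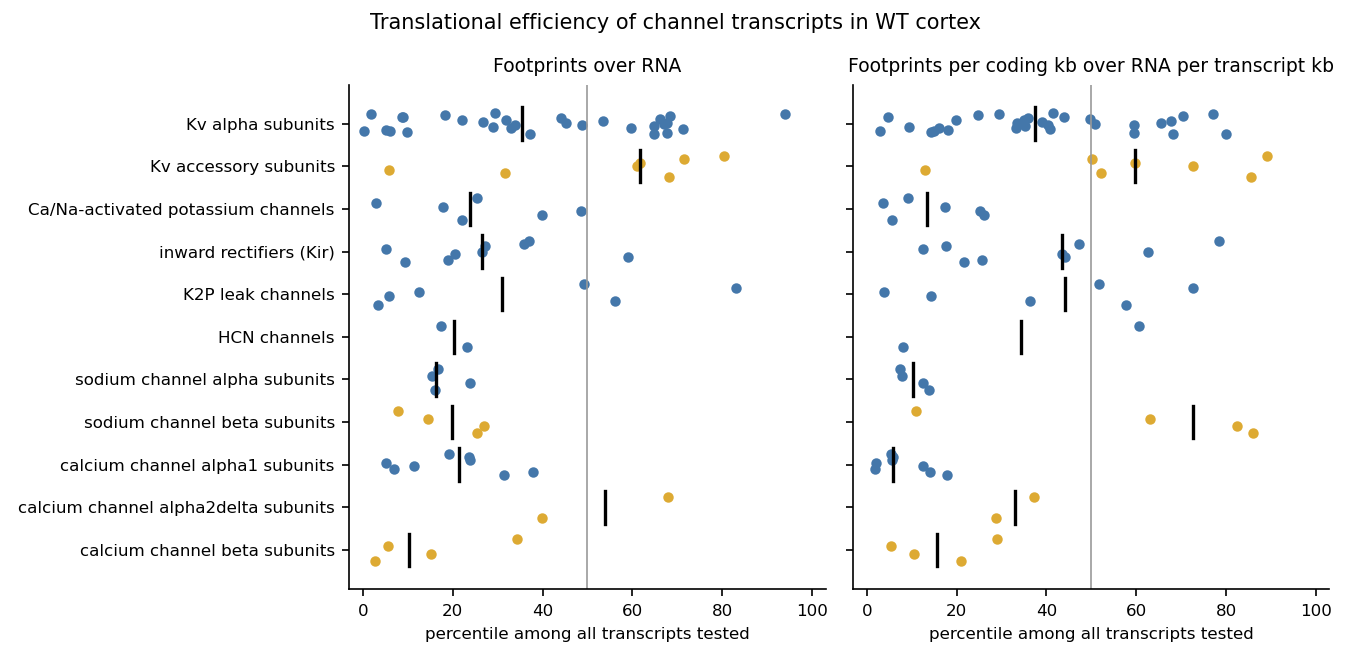
Percentile of WT translational efficiency among all transcripts tested (x axis) for each channel (points) by family (rows), with family medians as black bars, accessory subunits in yellow and other subunits in blue. Left, footprints over RNA, right, both taken per kilobase, and the calcium channel alpha1 and sodium channel alpha subunits sit under percentile 50 in both panels, and the sodium channel beta subunits move across.

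The RNA comparison asked which channel transcripts changed in abundance when neurons lost Nsun2. RNA of 9 of 82 channels was called lower in KO mice and of 0 higher, against 1.65% of all transcripts called lower and 1.50% called higher. Without adjustment (p under 0.05), 32 channels were lower and 3 higher, against 9.34% and 11.9% of all transcripts. The median difference over the channels was -0.23, against 0.036 over all transcripts, and 64 of 82 differences were negative (78.0%, against 44.0% of all). Both KO mice lay under both WT mice for 46 channels (56.1%, against 21.6% of all) and above them for 7 (8.54%, against 31.4%). Over the channels, the median deviation from each transcript's mean of the 4 mice was 0.064 and 0.16 in WT mice 1 and 2 and -0.063 and -0.17 in KO mice 1 and 2, so WT mouse 2 was the highest and KO mouse 2 the lowest. Without WT mouse 2 only Kcnk9 and Cacna1e kept their calls, and calls also fell over all transcripts. The median of the channels was then -0.17, against 0.019 over all. Without WT mouse 1 the median was -0.30, against 0.054 over all, with more calls both among the channels and over all transcripts. Leaving out KO mouse 1 or KO mouse 2 gave medians of -0.28 and -0.17, against 0.032 and 0.043 over all. Over the 4 fits 59 to 66 of the 82 differences were negative.

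**Figure D2:**
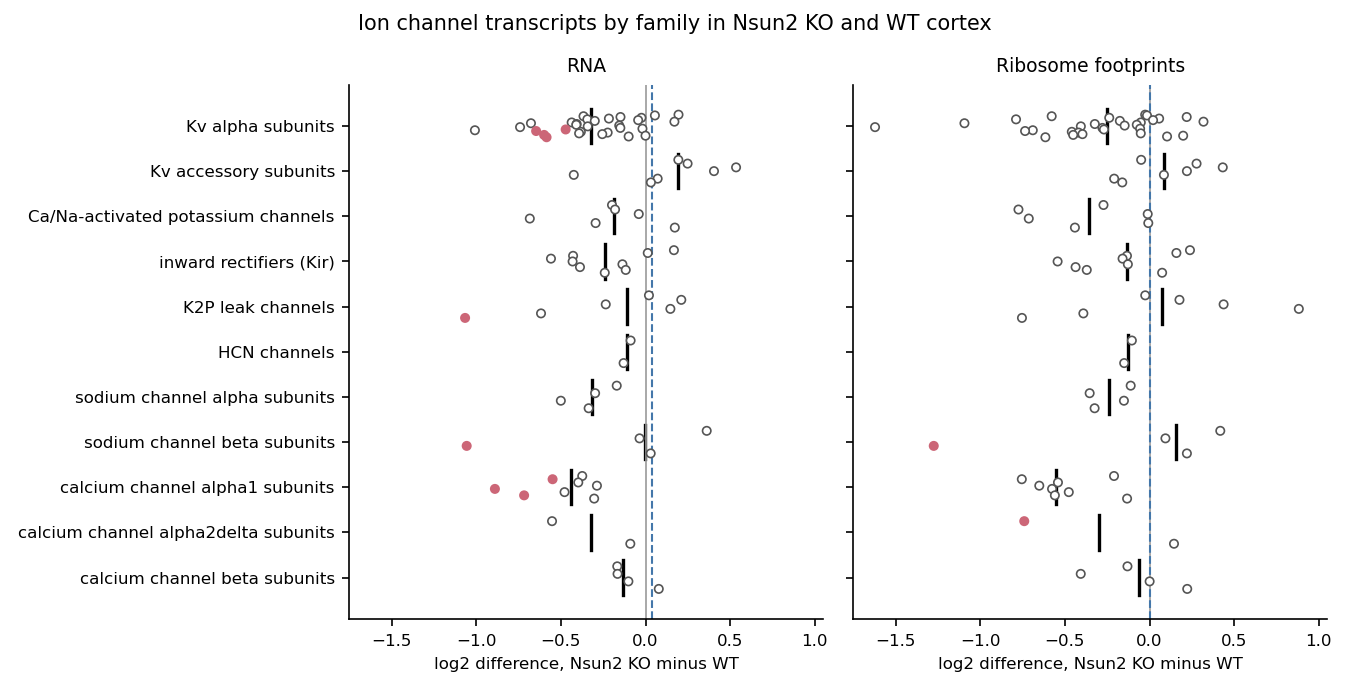
Log2 difference, Nsun2 KO minus WT (x axis), of each channel tested (circles) by family (rows), for RNA on the left and ribosome footprints on the right. Filled circles passed an adjusted p of 0.05, black bars are family medians and the dashed line is the median of all transcripts, and all 8 calcium channel alpha1 subunits lie left of 0 in both panels.

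By family, most of the negative RNA differences belonged to pore-forming subunits, while the accessory subunits lay on both sides of 0. All 8 calcium channel alpha1 subunits had lower RNA in KO mice with no overlap between the groups, 3 of them called, with differences from -0.89 to -0.29 and a median of -0.44. All 4 sodium channel alpha subunits tested lay lower without overlap (median -0.32, 0 called). Of 30 Kv alpha subunits, 27 differences were negative, 17 without overlap, and 4 were called (median -0.32). Over all transcripts 44.0% of RNA differences were negative, 21.6% lay lower without overlap and 1.65% were called lower. Within the Kv alpha subunits the medians were -0.41 for the Kcnd, -0.39 for the Kcnq, -0.38 for the Kcnh, -0.28 for the Kcnb, -0.17 for the Kcnc and -0.024 for the Kcna subfamily. The 9 Kir channels had a median of -0.24 with 0 called, the 6 calcium- and sodium-activated channels -0.19 with 0 called, the 6 K2P channels -0.11 with 1 called, and the 2 HCN channels -0.11 with 0 called. The 17 accessory subunits of Kv, sodium and calcium channels had a median of 0.03, with 8 negative, 9 positive and 1 called lower, against -0.34 with 39 of 42 negative and 7 called lower in the pore-forming subunits of the same channels. That grouping was made after the values were seen, and the difference between the groupings was not tested.

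Among potassium channels the largest called fall was that of Kcnk9 (TASK-3, chr15:72501089-72546340), a leak channel whose gene is imprinted and expressed from the maternal allele in brain. Its RNA was 1596 and 1947 in WT against 785 and 902 in KO mice (log2 difference -1.07 ± 0.12, adjusted p = 0.00154). The KO values lay at about the same level as each other and far under both WT values, and the call held without any 1 mouse (adjusted p up to 0.0299). Other K2P channels were not called: Kcnk1 had a difference of 0.02 ± 0.12, Kcnk2 (TREK-1) -0.24 ± 0.13 and Kcnk3 (TASK-1), the closest relative of Kcnk9, 0.15 ± 0.14. Kcnk12, a silent K2P subunit, was at 75.5 and 67.7 in WT against 86.4 and 79.5 in KO mice, also not called.

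The Kcnh channels, relatives of the ether-a-go-go channel of Drosophila, had 7 of 7 RNA differences negative and 2 called lower. Over all transcripts 44.0% were negative and 1.65% called lower. Kcnh5 (Kv10.2, chr12:74897220-75177332) stood at 850.2 and 911 in WT against 556 and 567 in KO mice (log2 difference -0.65 ± 0.11, adjusted p = 0.0142), with the mice of each group close together. Kcnh3 (Kv12.2, chr15:99224861-99242817) had 1019 and 1094 in WT against 806 and 718 in KO mice (log2 difference -0.47 ± 0.11, adjusted p = 0.0456). Among the 4 fits that left out 1 mouse, Kcnh5 lost its call only without WT mouse 2 (log2 difference -0.60). Kcnh3 passed in none of the 4, with log2 differences from -0.56 to -0.39. Kcnh4 (Kv12.3), with low values of 76.3 and 79.6 in WT against 31.0 and 47.1 in KO mice, had one of the largest differences without overlap, -1.01 ± 0.26, and was not called (adjusted p = 0.0609).

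The M-current subunit Kcnq5 and the silent subunit Kcnv1 were called lower. Kcnq5 (Kv7.5, chr1:21398408-21961942) had 1306 and 1472 in WT against 956 and 875 in KO mice (log2 difference -0.60 ± 0.11, adjusted p = 0.0192), and its call was lost without WT mouse 2 (adjusted p = 0.112) and without KO mouse 2 (0.0755). Kcnq3, another M-current subunit, had 3940.3 and 4852 in WT against 3459 and 3876 in KO mice, without overlap, and was not called (adjusted p = 0.232). Kcnv1 (Kv8.1, chr15:45106284-45114827) had 720.3 and 945 in WT against 542 and 557 in KO mice (log2 difference -0.59 ± 0.14, adjusted p = 0.0421). The WT values of Kcnv1 were spread widely, and its call was lost without WT mouse 2 (adjusted p = 0.185), without KO mouse 1 (0.0604) and with each library scaled to its sum (0.0545).

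The following potassium channels were not called in RNA. Kcnd2 (Kv4.2), which carries the A-type current of dendrites, had 962 and 1159.8 in WT against 835 and 759 in KO mice, with no overlap and an adjusted p of 0.0926. Kcnd1, a lower relative, had 87.7 and 101 in WT against 59.8 and 56.9 in KO mice (-0.68 ± 0.21, adjusted p = 0.0987). Kcnc1 and Kcnc2 (Kv3.1 and Kv3.2), the channels of fast-spiking interneurons, had RNA differences of -0.044 ± 0.12 and -0.30 ± 0.14, and the Kcnc1 values of the groups overlapped. Kcna2 differed by 0.055 ± 0.091. Kcnj10 (Kir4.1), the astrocyte channel that takes up potassium, had 604 and 840.2 in WT against 874 and 732 in KO mice, overlapping and not called.

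Calcium channels gave 3 calls, each of a different current type. Cacna1e (Cav2.3, the R-type channel, chr1:154390731-154726356) had 3181 and 3882 in WT against 1968 and 1825 in KO mice (log2 difference -0.89 ± 0.11, adjusted p = 0.00268), and it was called without any 1 mouse (adjusted p up to 0.0305). Cacna1b (Cav2.2, the N-type channel of presynaptic terminals, chr2:24606570-24763047) had 1068 and 1301 in WT against 854 and 758 in KO mice (log2 difference -0.55 ± 0.12, adjusted p = 0.0387), with the call lost without WT mouse 2 (adjusted p = 0.178) or KO mouse 2 (0.177). Cacna1h (Cav3.2, a T-type channel, chr17:25374295-25433783) had lower values, 251 and 308 in WT against 167 and 169.7 in KO mice (log2 difference -0.72 ± 0.15, adjusted p = 0.0347). Among the fits that left out 1 mouse, Cacna1h kept its call only without WT mouse 1, with log2 differences from -0.86 to -0.57 over these fits. Cacna1a (Cav2.1, the P/Q-type channel), which shares terminals with Cacna1b, had 1965 and 2094 in WT against 1515 and 1616 in KO mice and an adjusted p of 0.0677. The calcium channel beta subunits differed by -0.17 to 0.078 with 0 called.

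Of the 8 sodium channel subunits tested, 1 was called lower in RNA, against 1.65% of all transcripts. Scn3b (beta3, chr9:40269217-40291618) had RNA values of 576 and 784 in WT against 301 and 345 in KO mice (log2 difference -1.06 ± 0.15, adjusted p = 0.0054) with a wide gap between the groups. Among the fits that left out 1 mouse, Scn3b lost its call only without WT mouse 2 (log2 difference -0.84). Scn2b overlapped between the groups, at 2821 and 3107 in WT against 2982 and 2797 in KO mice. The alpha subunit Scn2a had 3846 and 4918 in WT against 3764 and 3323 in KO mice. Scn8a had 3955 and 4601 in WT against 3629.6 and 3144 in KO mice, and Scn1a had 1811 and 2039 in WT against 1744 and 1671 in KO mice. For each of these 3 both KO mice lay under both WT mice, and none was called, with differences of -0.30 ± 0.12, -0.34 ± 0.11 and -0.17 ± 0.10 in that order.

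**Figure D3:**
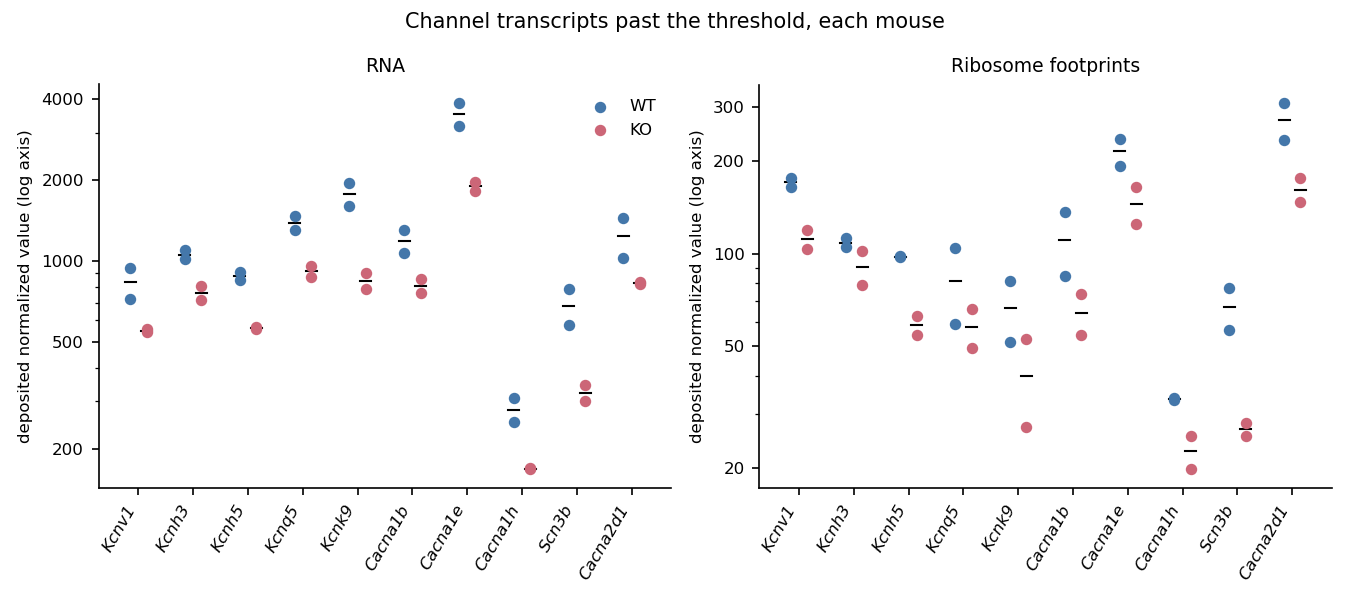
Deposited normalized value (y axis, log scale) of the 10 channels called in RNA or footprints, for RNA on the left and footprints on the right, with 2 WT mice in blue, 2 KO mice in red and group means as bars. In RNA the KO points lie under the WT points for every channel shown, and in footprints Kcnk9 and Kcnq5 overlap.

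The Kv accessory subunits had 6 of 7 RNA differences positive (median 0.19), with 0 called, where 44.0% of all transcripts were negative. These subunits are short, with a median of 284 codons. All transcripts of 25 to 250 and of 251 to 396 codons had medians of 0.15 and 0.067, with 26.6% and 39.0% negative. Kcnab3, a beta subunit of Kv1 channels, was at 1002 and 592 in WT against 1086 and 1148 in KO mice (log2 difference 0.53 ± 0.19, adjusted p = 0.142), with WT mouse 2 far below the others. Kcnip1, a Kv4 partner found in interneurons, was at 253 and 179 in WT against 274 and 290.4 in KO mice (log2 difference 0.40 ± 0.17, adjusted p = 0.205), again with WT mouse 2 the lowest. Kcnab2 and Kcnab3 were called higher in the fit without WT mouse 1, and Kcnab3 also in the fit without KO mouse 1. Kcnip2 overlapped between the groups, at 1798 and 1236 in WT against 898 and 1374 in KO mice. The inhibitory neuron markers had positive differences over the same mice as given above, and their part in these values was not tested.

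The footprint comparison asked whether ribosome occupancy of the channels changed. Footprints of 2 of 82 channels were called lower in KO mice, Scn3b and Cacna2d1, and of 0 higher, against 0.384% of all transcripts called lower and 0.206% called higher. Without adjustment (p under 0.05), 18 channels were lower and 4 higher, against 6.89% and 5.89% of all. The channels' median was -0.16, against 0.0022 over all transcripts, with 60 of 82 negative (73.2%, against 49.6%). Both KO mice lay under both WT mice for 29 channels (35.4%, against 19.8%) and above them for 7 (8.54%, against 22.8%). The median deviation of the channels was 0.0016 in WT mouse 1, 0.24 in WT mouse 2, -0.021 in KO mouse 1 and -0.13 in KO mouse 2, so that WT mouse 1 sat nearer to KO mouse 1 than to WT mouse 2. Without WT mouse 2, Scn3b and Cacna2d1 lost their calls and no other channel gained one, although calls over all transcripts did not fall. The median of the channels was then -0.10, against -0.0069 over all, with 49 of 82 negative. Without WT mouse 1 the median was -0.35, against 0.012 over all, with more calls both among the channels and over all transcripts. Leaving out KO mouse 1 or KO mouse 2 gave medians of -0.22 and -0.12, against 0.0079 and 0.0059 over all. Without KO mouse 2 the calls of Scn3b and Cacna2d1 were lost.

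Scn3b footprints were 56.4 and 77.1 in WT against 28.0 and 25.4 in KO mice (log2 difference -1.27 ± 0.24, adjusted p = 0.0266). As in RNA, both KO mice lay under both WT mice by a wide gap. Cacna2d1 (alpha2delta-1, chr5:15934788-16371069), the subunit that binds gabapentin, had footprints of 234 and 310.2 in WT against 176 and 147 in KO mice (log2 difference -0.74 ± 0.15, adjusted p = 0.0381) and RNA of 1021 and 1450.5 in WT against 836 and 823 in KO mice (log2 difference -0.55 ± 0.15, adjusted p = 0.0673). Both channels lost the footprint call without WT mouse 2 and without KO mouse 2, with adjusted p up to 0.159 for Scn3b and 0.34 for Cacna2d1. With a minimum mean of 50 footprints Cacna2d1 was not called (adjusted p = 0.0747) and Scn3b was not tested. Cacna2d2, another alpha2delta subunit, overlapped, at 31.9 and 30.0 in WT against 39.7 and 29.6 in KO mice. Footprints of the channels called in RNA were not called, Scn3b apart. Kcnh5 had 98.2 and 97.1 in WT against 54.1 and 62.8 in KO mice (adjusted p = 0.0943), and Kcnv1 had 165 and 177 in WT against 119.6 and 103 in KO mice (adjusted p = 0.0853). Cacna1e had 193 and 237 in WT against 164 and 125 in KO mice, and Cacna1b had 84.7 and 136 in WT against 74.0 and 54.1 in KO mice. In these 4 the KO mice lay under the WT mice without overlap. Kcnk9, with 51.4 and 81.3 in WT against 52.7 and 27.2 in KO mice, and Kcnq5, with 59.1 and 104 in WT against 66.0 and 49.4 in KO mice, overlapped, WT mouse 1 being the lower of the WT mice in both.

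All 8 calcium channel alpha1 subunits had negative footprint differences, 6 without overlap (median -0.55). So had all 4 sodium channel alpha subunits (median -0.24, 1 without overlap). All 7 Kcnh channels were negative without overlap, but Kcnh2 only barely. It had 47.2 and 43.94 in WT against 43.7 and 43.93 in KO mice (log2 difference -0.055 ± 0.22). Kcnh4 and Kcnh6 had few footprints. Over all transcripts 49.6% of footprint differences were negative, and 19.8% had both KO mice under both WT mice. Kv alpha subunits as a whole had a median of -0.25, calcium- and sodium-activated channels -0.36, Kir channels -0.13, HCN channels -0.13, K2P channels 0.076, Kv accessory subunits 0.085 and sodium channel beta subunits 0.16. Beside Scn3b, the largest negative differences without overlap were those of Kcng3, Kcnd1 and Kcnb2, none of them called. Kcng3, a silent subunit, had 12.01 and 21.2 in WT against 2.37 and 8.06 in KO mice, and Kcnd1 had 19.7 and 11.1 in WT against 6.23 and 6.59 in KO mice, both few footprints. Kcnb2 (Kv2.2) had 41.4 and 56.5 in WT against 37.0 and 20.5 in KO mice. Among the largest positive differences were those of Kcnk3, Kcnk2 and Kcnab3, also not called. Kcnk3 had 7.95 and 12.3 in WT against 22.0 and 16.6 in KO mice, and Kcnk2 had 19.1 and 29.7 in WT against 32.4 and 32.9 in KO mice, again at low values.

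Footprint and RNA differences, both taken from the same 4 mice, had r = 0.74 over the 82 channels and 0.57 over all transcripts.

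**Figure D4:**
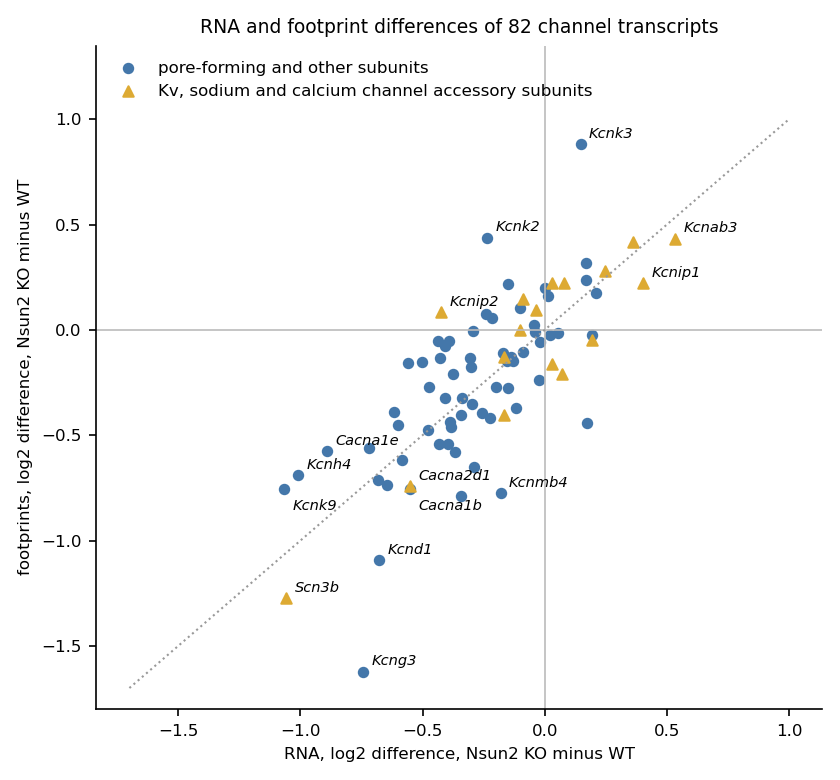
RNA difference (x axis) against footprint difference (y axis), both log2 KO minus WT, for the 82 channels tested, with accessory subunits of Kv, sodium and calcium channels as yellow triangles and the other channels as blue circles. The dotted line marks equal differences, Scn3b lies at the lower left and under it, and Kcnk3 and Kcnk2 lie above it.

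The comparison of translational efficiency asked whether footprints changed beyond RNA. In the model over the 8 libraries 0 of 82 channels and 0 of 10674 transcripts were called by limma, so that 0.00% were called lower and 0.00% higher. Before adjustment (p under 0.05), 1 channel was lower, Kcnmb4, and 1 higher, Kcnk2, against 2.78% and 1.56% of all. A fit on the efficiency of each mouse also called 0. The median over the channels was 0.011, against -0.034 over all, and 38 of 82 were negative (46.3%, against 56.1%). Both KO mice lay under both WT mice for 12 channels (14.6%, against 23.0%) and above them for 15 (18.3%, against 15.3%). The 95% interval of a channel's efficiency difference reached a median of 0.55 on each side, on the log2 scale, without adjustment. Without WT mouse 2 the median was 0.11 and without WT mouse 1 it was -0.037, with 29 and 48 of 82 negative.

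For the channels called in RNA the efficiency intervals were wide and spanned 0. The efficiency difference of Kcnk9 was 0.31, 95% interval -0.52 to 1.15. That of Cacna1e was 0.31, 95% interval -0.15 to 0.77, and that of Cacna1b was -0.21, 95% interval -0.86 to 0.45. Kcnh5 had -0.089, 95% interval -0.49 to 0.31, and Scn3b had -0.22, 95% interval -0.83 to 0.40. Kcnmb4, the neuronal BK beta subunit, had RNA of 1316 and 1345 in WT against 1228 and 1122 in KO mice and footprints of 41.3 and 48.9 in WT against 26.0 and 25.7 in KO mice, an efficiency difference of -0.59 ± 0.19 that did not pass adjustment (adjusted p = 0.999). The other large negative differences without overlap were those of Kcng3 (-0.88 ± 0.64), Kcnt2, a sodium-activated channel (-0.61 ± 0.34), and Kcnb2 (-0.44 ± 0.35). The largest positive differences without overlap were those of Kcnk3 (0.74 ± 0.35), Kcnk2 (0.67 ± 0.30), Kcnip2, a Kv4 partner (0.51 ± 0.34), and Kcnj16, a glial Kir subunit (0.40 ± 0.45). Each of these had an adjusted p of 0.999. Family medians ran from -0.18 for Kv accessory subunits to 0.27 for K2P channels.

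Coding length moved with the RNA difference in the whole table, and the channels include many long transcripts. With all transcripts cut into 5 bins of like size by coding length, the median RNA difference went from 0.15 in the shortest (25 to 250 codons) through 0.067, 0.024 and -0.0021 to -0.048 in the longest (858 to 7717 codons). The channels in the same bins had medians of 0.03 (n = 7), 0.02 (n = 7), -0.14 (n = 25), -0.22 (n = 13) and -0.34 (n = 30), under the median of all transcripts in each. In the longest bin, 6 of 30 channels were called lower in RNA against 3.36% of all transcripts of that length, and 29 of 30 differences were negative against 59.5%. In footprints the same channels had a median of -0.37 against -0.054, while the 14 channels of the shortest 2 bins had medians of 0.094 and 0.085 against 0.048 and 0.029. The pore-forming subunits had a median of 890 codons and the accessory subunits 367, so subunit kind and length run together here, and the part of length in the channel differences was not tested.

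Glycine codons made a median of 6.21% of the codons of the channels and 6.30% of all transcripts, and GGA codons 1.14% and 1.51%. Over the 82 channels the glycine share and the efficiency difference had r = 0.32 (rho = 0.32), KO minus WT, against r = -0.0035 over all 10573 transcripts with a coding sequence. The channels share their libraries and many have few footprints, and r ranged from 0.18 to 0.34 when 1 mouse was left out. Among the channels richest in glycine, Kcnab3 with 11.4% glycine codons had an efficiency difference of -0.10 and Kcnc4 with 10.8% 0.39. At the bottom, Scn3b with 3.72% had -0.22, Kcnmb4 with 3.81% -0.59 and Kcnt2 with 3.96% -0.61. The GGA share had r = 0.071 with the efficiency difference over the 82 channels, against -0.05 over all 10573 transcripts. Over the 50 channels with a mean of at least 50 footprints it had r = -0.26. Kcnc4 was picked here for its glycine share.

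**Figure D5:**
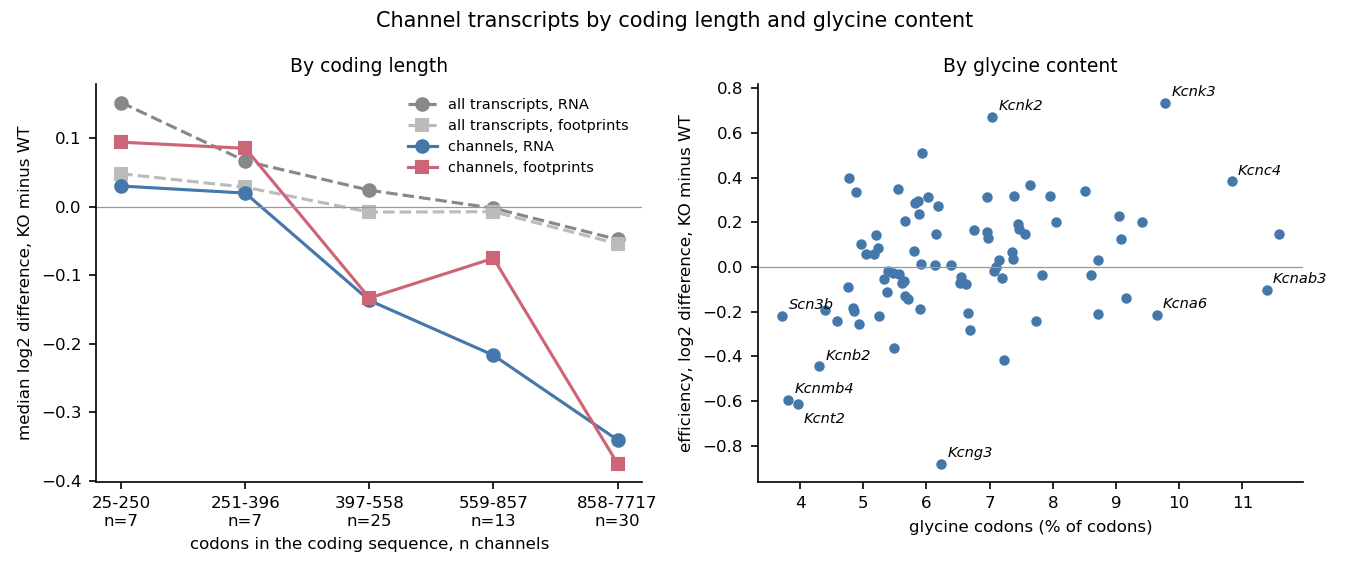
Left, median log2 difference, KO minus WT (y axis), over 5 bins of coding length (x axis, codons, with the number of channels), for the channels (solid) and all transcripts (dashed) in RNA (circles) and footprints (squares). Right, efficiency difference (y axis, log2) against the share of glycine codons (x axis, percent of codons) for each of the 82 channels, of which the 3 with the fewest glycine codons lie under 0.

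Proteins that anchor or modify these channels, and channels of other families, were read from the same fits. Of 32 partners and scaffolds 30 were tested, 22 had a negative RNA difference (median -0.20), and 2 were called lower, beside 44.0% negative and 1.65% called lower over all transcripts: Nfasc, the neurofascin of the axon initial segment (log2 difference -0.45 ± 0.10, adjusted p = 0.037), and Dpp6, an accessory protein of Kv4 channels (log2 difference -0.53 ± 0.12, adjusted p = 0.0377). In footprints 24 of 30 were negative and 1 was called lower, beside 49.6% and 0.384% over all transcripts. This was Cntnap2, which clusters Kv1 channels along the axon, with 150.4 and 180.3 in WT against 99.4 and 66.8 in KO mice (log2 difference -1.01 ± 0.19, adjusted p = 0.026). Of 25 other ion channels 24 were tested, 23 had a negative RNA difference (median -0.29), and 3 were called lower, beside the same RNA shares over all transcripts. These were Ryr1, a ryanodine receptor that releases calcium from internal stores, with 350.1 and 414 in WT against 129.7 and 168 in KO mice (log2 difference -1.36 ± 0.17, adjusted p = 0.00197), the inositol trisphosphate receptor Itpr1 (log2 difference -0.47 ± 0.10, adjusted p = 0.0301) and Ano3, of the anoctamin family (log2 difference -0.55 ± 0.11, adjusted p = 0.027). No footprint difference of these other channels was called. Without 1 mouse in turn, Ryr1 was called in 4 of 4 fits and Cntnap2 in 3, Dpp6 and Ano3 in 2, and Nfasc and Itpr1 in 1.

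The 18 channels below the filter had means of 2.19 to 9.84 footprints over the 4 mice, and they comprise Kv alpha, K2P, calcium-activated, HCN, sodium alpha, alpha2delta, Kir and accessory members. With no filter, 12 of these 18 had a negative RNA difference and 9 of 18 a negative footprint difference. The medians over all 12719 transcripts in that fit were 0.020 and -0.0054. Of the 18, 1 was called, the lower RNA of Scn7a, a sodium channel relative that senses sodium level (-1.29, adjusted p = 0.042). Scn7a is named here after its values were seen. Over all 12719 transcripts the same fit called 200 lower and 159 higher in RNA, and 38 and 22 in footprints.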

How the data were processed

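Cortical lysates with cycloheximide were digested with RNase I for footprints, and total RNA was sequenced from the same mice. The authors trimmed reads (cutadapt 3.1), removed duplicates (UMI-tools 1.1.1), discarded rRNA, tRNA and mitochondrial reads and aligned the rest to the longest coding transcript of each Ensembl gene (Bowtie2 2.4.2, SAMtools 1.11). They then used Ribolog for stall correction and median normalization and state that transcripts with 0 counts were removed, although each deposited footprint library still lists 35 to 50 transcripts at 0. The deposited values are therefore a normalized signal per transcript and not counts, and footprint depth is unknown. Whether RNA was counted over the coding sequence or the whole transcript is not given in the sources used here.

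Here, symbols and coding sequences came from GENCODE vM21, in which 12588 of 12719 identifiers had a sequence. Transcripts with a mean of at least 10 footprints were tested with limma 3.58.1 (R 4.3.3) with trend on log2(value + 1), two-sided, with Benjamini-Hochberg adjustment over all of them. The efficiency test was the library kind by genotype term over 8 libraries, which treats the RNA and footprint libraries of a mouse as independent. The fit was also run on simulated data with known changes. Alternatives were other pseudocounts, filters and scalings, leaving out each mouse, the replicate block and the efficiency difference per mouse. Tables used Python 3.11.15. Single genes named are those called, the 2 highest of each family per kilobase, the 4 largest differences each way without overlap in each comparison, the 5 highest and 5 lowest WT efficiencies and 11 fixed by name, of which some genes are not reported here. The members and lists were chosen with earlier results of these data known. With 2 mice a group, p-values measure only spread between these mice. In limma the variance of each transcript is moved toward a trend over all transcripts tested, so its p-value also rests on the spread of the others.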

Additional observations from a re-analysis of the deposited data

How the results depend on the processing

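The limits are those of 2 mice a group: leaving out 1 mouse in turn moved the count of channels called from 2 to 17 in RNA and from 0 to 15 in footprints, and their median from -0.30 to -0.17 in RNA, from -0.35 to -0.10 in footprints and from -0.037 to 0.11 in translational efficiency, where the count stayed at 0. With a mean of at least 50 footprints required, 0 of 50 channels were called in footprints. Pseudocounts of 0.5 and 5, no filter, scaling to the sum, scaling by the median log ratio and quantile normalization gave 8 to 10 channels called in RNA, all lower, and 2 in footprints. No alternative turned the direction of a called channel. Over all transcripts, scaling by the median log ratio gave 204 lower and 122 higher RNA calls, against 176 and 160, and the footprint calls with that scaling were 53 lower and 22 higher, against 41 and 22. The causes of these moves were not tested. WT and KO mice share the numbers 1 and 2 in the labels, but nothing says that a number marks a shared litter or batch, and the deviations of same-numbered mice had correlations of -0.11 in RNA and -0.15 in footprints. With the replicate number as a block, 0 channels were called in RNA, 0 in footprints and 0 in efficiency, and 6 and 3 transcripts in RNA and footprints over the whole table. With the numbers crossed in the block, a pairing added after seeing the data, 27 channels were called in RNA, 9 in footprints and 0 in efficiency. In RNA 25 were lower and 2 higher, and in footprints 8 and 1. Calls rose over the whole table too, to 553 lower and 494 higher of 10674 transcripts in RNA and 298 and 136 in footprints.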

Other observations

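Kcnk9 lies on chromosome 15 in a cluster with Trappc9, Chrac1 and Ago2, genes of the imprinted domain around Peg13. The transcripts of the table within 1 Mb of Kcnk9 were read after the values of Kcnk9 had been seen. Trappc9, just beyond Kcnk9 on the chromosome, had RNA values of 559 and 483 in WT against 632 and 549 in KO mice (log2 difference 0.18 ± 0.13, adjusted p = 0.438). Ago2, an Argonaute protein, had 1961 and 1928 in WT against 2109 and 2084 in KO mice (log2 difference 0.11 ± 0.10, adjusted p = 0.544). Chrac1, Ptk2 and Fam135b differed by 0.042, -0.086 and -0.012, so none of the 5 neighbours was called in RNA, and in footprints their adjusted p ranged from 0.417 to 0.971.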
